A study of Chlorocebus aethiops with 24 samples.

Results

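Enzymes that write and erase histone marks, the bromodomain proteins that read them and the ATP-driven machines that move nucleosomes were followed in the hippocampus of young vervet monkeys exposed to alcohol before birth. The genes were taken by name. A probe set was included where the platform annotation gave it 1 gene symbol and that symbol began with KDM, KMT, MLL, HDAC, SETD, EZH, EHMT, SUV, SMARC or ARID, or with KAT, SIRT, CHD or BRD followed by a digit. Of the 11512 probe sets in the table, 75 met this rule, and they stand for 72 genes because KDM1B, KDM3A and CHD8 each had a pair of probe sets in the platform annotation. By class, the 75 were 3 lysine acetyltransferases, 17 lysine methyltransferases, 3 MLLT genes, 15 lysine demethylases, 6 histone deacetylases, 4 sirtuins, 8 CHD remodelers, 9 SMARC genes, 4 ARID genes and 6 BRD genes. The MLLT genes were caught by their name only. They encode partners of elongation and DOT1L complexes and not methyltransferases. The other classes were also set by gene name, so a methyltransferase counted here need not act on histone lysines.

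Messenger RNA of the whole left hippocampus was hybridized to Affymetrix Rhesus Macaque arrays, 1 for each of 22 male animals. FASD, short for fetal alcohol spectrum disorder, names the offspring of alcohol-preferring dams that drank ethanol voluntarily late in gestation, and controls are the offspring of alcohol-preferring dams given sucrose of matched calories in the same period. By the study's methods a dam could receive ethanol for 1 pregnancy and sucrose for another, so animals of different groups may share a dam, which the fits could not take into account. There were 5 FASD animals and 6 controls at 2 years of age, and 5 FASD animals and 6 controls at 5 months. Each group was planned with 6 animals, and 1 FASD array at each age was discarded by the authors and was not analysed here. The probes were designed on the rhesus genome, so a sequence difference in the vervet can lower a probe set's signal. Differences were therefore taken between animals within each probe set. Levels of different probe sets were compared only to mark a low signal and to select probe sets in alternative fits. Values are log2 expression intensities, on which a difference of 1 is a doubling. The p values set a difference between groups against the spread between animals.

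DNA is wound around histone proteins, and chemical groups on the histone tails mark which stretches are read. Acetyl groups loosen the contact and are added by lysine acetyltransferases and removed by histone deacetylases and sirtuins. Methyl groups act by position: on some lysines they mark active promoters, on others they mark silenced chromatin (H3K9, for example, is a lysine of histone H3 where methylation marks silencing, and H3K4 one where it marks promoters), and each is set by methyltransferases and taken off by demethylases. Bromodomain proteins bind acetylated lysines, while CHD proteins and the SMARC and ARID subunits of the BAF and PBAF complexes spend ATP to slide or evict nucleosomes. In the brain these proteins are known for their part in neuronal maturation and memory, and loss of several of them causes neurodevelopmental syndromes in humans.

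The mean correlation of an array with the other arrays across probe sets was between 0.979 and 0.991, and the lowest value belonged to FASD animal 2 at 5 months. That animal also had the lowest mean over the 75 probe sets, 0.174 below the mean of the 4 group means on the log2 scale. The other 4 FASD animals at 5 months lay between -0.022 and 0.073 on this measure. Controls of that age lay between -0.011 and 0.067. In FASD animal 2, summed markers of mature oligodendrocytes (4 probe sets measured for 8 genes) were the highest of its group at 0.60 above their mean. So were those of mural cells and fibroblasts (3 for 6 genes) at 0.97 and of microglia (5 for 7 genes) at 0.44. Oligodendrocyte precursor markers (3 for 5 genes) did not overlap between the exposures at 5 months, at 0.21 to 0.33 in FASD animals and -0.18 to 0.06 in controls. Neuronal markers (2 for 8 genes) overlapped at both ages. In a whole tissue, fewer cells of a type and less RNA per cell cannot be told apart, and the part of these markers in the results that follow was not tested. Results are therefore given with and without FASD animal 2 where it moves them.

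**Figure D1:**
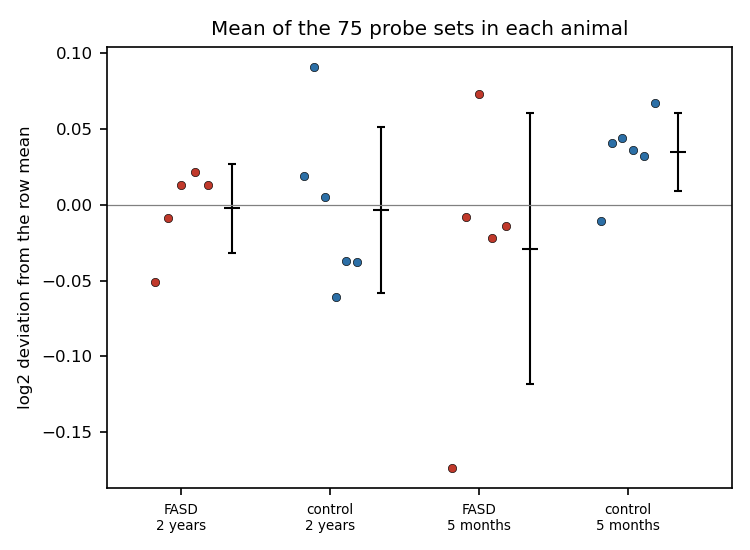
Mean over the 75 probe sets in each animal, as the log2 deviation from each row's mean over all 22 animals (vertical axis), by group. Points are animals and bars give the group mean and SD. FASD animal 2 at 5 months lies at -0.174, and all other animals lie between -0.061 and 0.091.

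The effect of alcohol was first examined over both ages. It is given as the mean, over the ages, of FASD minus control in a limma fit to all 11512 probe sets. No member passed an adjusted p under 0.05, and neither did any other probe set. At an unadjusted p under 0.05, 9 of the 75 were lower in FASD animals (12%, against a background of 6.01% of all probe sets), and 0 were higher, against a background of 2.43%. The 9 were ARID4B, SIRT1, ARID4A, KDM3B, KAT6A, KDM4C, SETDB2, HDAC8 and HDAC2, and their levels were lower by 8.29% to 14.2% on the linear scale. Adjusted p values of these 9 were between 0.579 and 0.590.

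Over all members, 47 of 75 differences were below 0 (62.7%, against 53.2% of all probe sets). The median difference was -0.02, against -0.01 for all probe sets. With 1 animal left out, the 47 became as few as 40, without FASD animal 2 at 5 months. It became as many as 51, without FASD animal 4 at 5 months. At both ages alike, 29 members were lower in FASD animals (38.7%, against 32.3%) and 13 were higher (17.3%, against 25.2%). These counts moved with the scaling of the arrays and with single animals. With each array centred on its median, 8 members were lower and 0 higher, against 3.97% and 4.21% of all probe sets, and with quantile normalization 7 were lower and 0 higher, against 4.08% and 4.37%. The median of the members turned to 0.0023 under quantile normalization. Without FASD animal 2 at 5 months, 5 were lower, against 4.74% of all probe sets, and without FASD animal 1 at 2 years 5 of the 9 were among those still past the threshold. Without control animal 2 at 2 years, 2 members were higher, against 5.02%. ARID4B, SIRT1, ARID4A and KDM3B had an unadjusted p under 0.05 in all 31 alternatives, leaving out each animal included.

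**Figure D2:**
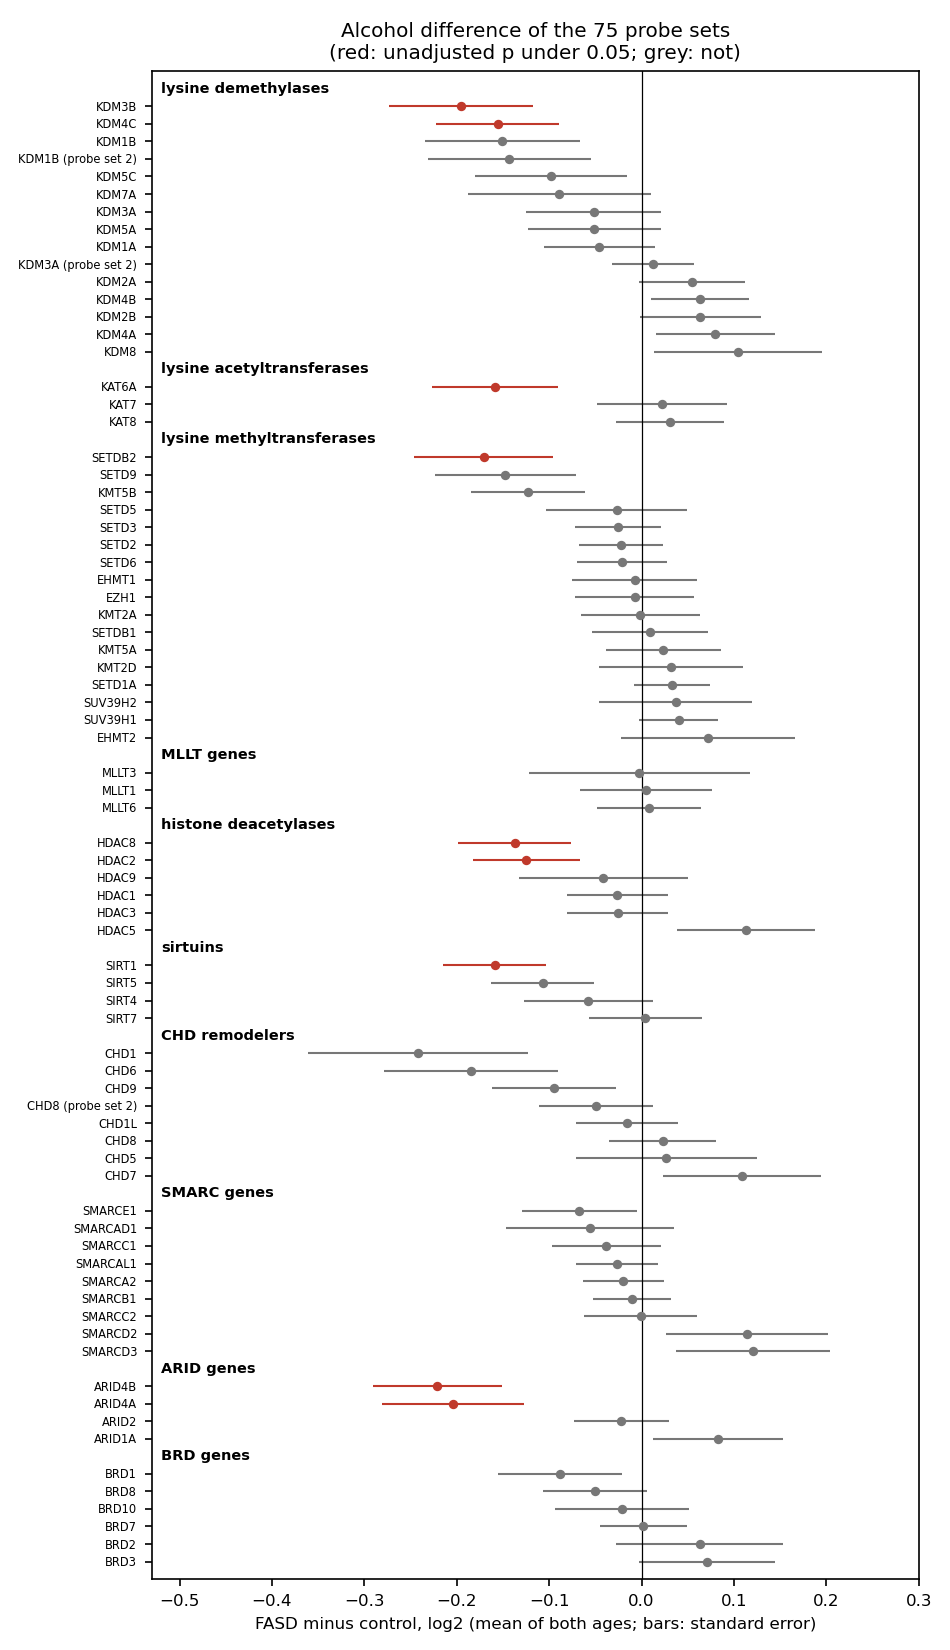
Alcohol difference (FASD minus control, mean of both ages, log2; horizontal axis) of each of the 75 probe sets, grouped by class, with its standard error as the bar. The 9 probe sets in red had an unadjusted p under 0.05 and all lie left of 0; none passed after adjustment.

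ARID4B, SIRT1 and ARID4A had the lowest p values of the 75 for alcohol. ARID4B and ARID4A are paralogous DNA- and chromatin-binding subunits of the SIN3 corepressor complex, which carries HDAC1 and HDAC2. At 2 years, ARID4B read 9.11, 8.85, 9.32, 9.36 and 9.36 in the 5 FASD animals and 9.23 to 9.72 (median 9.47) in the 6 controls. At 5 months it read 9.31, 9.16, 9.31, 9.31 and 9.41 in FASD animals and 9.38 to 9.59 (median 9.47) in controls. A single FASD animal, at 9.41, reached into the range of the controls at 5 months, and 3 did at 2 years. The alcohol difference of ARID4B was -0.22 (SE 0.07, limma adjusted p = 0.579). An exact two-sided permutation of the exposures within each age gave p = 0.00337 over 213444 arrangements. Here and below, this test was run only for genes already picked for low p in the same arrays. Its p values were not adjusted and give no separate support.

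ARID4A showed the same order of groups at both ages. It read 8.31, 8.17, 8.64, 8.62 and 8.62 in FASD animals at 2 years, against 8.38 to 9.02 (median 8.70) in controls. The readings at 5 months were 8.39, 8.50, 8.62, 8.50 and 8.58 in FASD animals, against 8.41 to 8.96 (median 8.70) in controls. All FASD animals lay below both control medians, though the ranges overlapped. The difference was -0.20 (SE 0.08, limma adjusted p = 0.579, exact permutation p = 0.016).

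HDAC2, a class I deacetylase of the SIN3, NuRD and CoREST complexes, had the smallest difference of the 9, -0.12 (SE 0.06, limma adjusted p = 0.590, exact permutation p = 0.0396). It read 9.39, 9.35, 9.64, 9.52 and 9.50 in FASD animals at 2 years and 9.48 to 9.80 (median 9.67) in controls. The readings at 5 months were 9.56, 9.46, 9.71, 9.60 and 9.72 in FASD animals and 9.51 to 9.93 (median 9.65) in controls. The groups overlapped at both ages. HDAC2 had an unadjusted p of 0.05 or more in 14 of the 31 alternatives. HDAC1, its close paralog, differed by -0.03 (SE 0.05) and HDAC3, the catalytic subunit of the NCoR complex, by -0.03 (SE 0.05). HDAC8, a class I enzyme whose substrates include cohesin, differed by -0.14 (SE 0.06, limma adjusted p = 0.584, exact permutation p = 0.0341), and its unadjusted p was 0.05 or more in 9 of the 30 alternatives that kept its probe set. The class IIa enzymes HDAC5 and HDAC9, which shuttle between cytoplasm and nucleus, differed by 0.11 (SE 0.07) and -0.04 (SE 0.09).

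SIRT1, a NAD-dependent deacetylase of the nucleus, read 7.81, 7.92, 8.14, 8.12 and 8.02 in FASD animals at 2 years and 7.98 to 8.37 (median 8.19) in controls. At 5 months it read 7.85, 7.98, 8.22, 8.05 and 8.06 in FASD animals and 8.0 to 8.29 (median 8.18) in controls. All FASD animals but 1 lay below the control median of their age. The difference was -0.16 (SE 0.06, limma adjusted p = 0.579, exact permutation p = 0.00731). Among the other sirtuins, SIRT7, of the nucleolus, differed by 0.00 (SE 0.06), and the mitochondrial SIRT4 and SIRT5, which do not act on chromatin there, by -0.06 (SE 0.07) and -0.11 (SE 0.06).

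**Figure D3:**
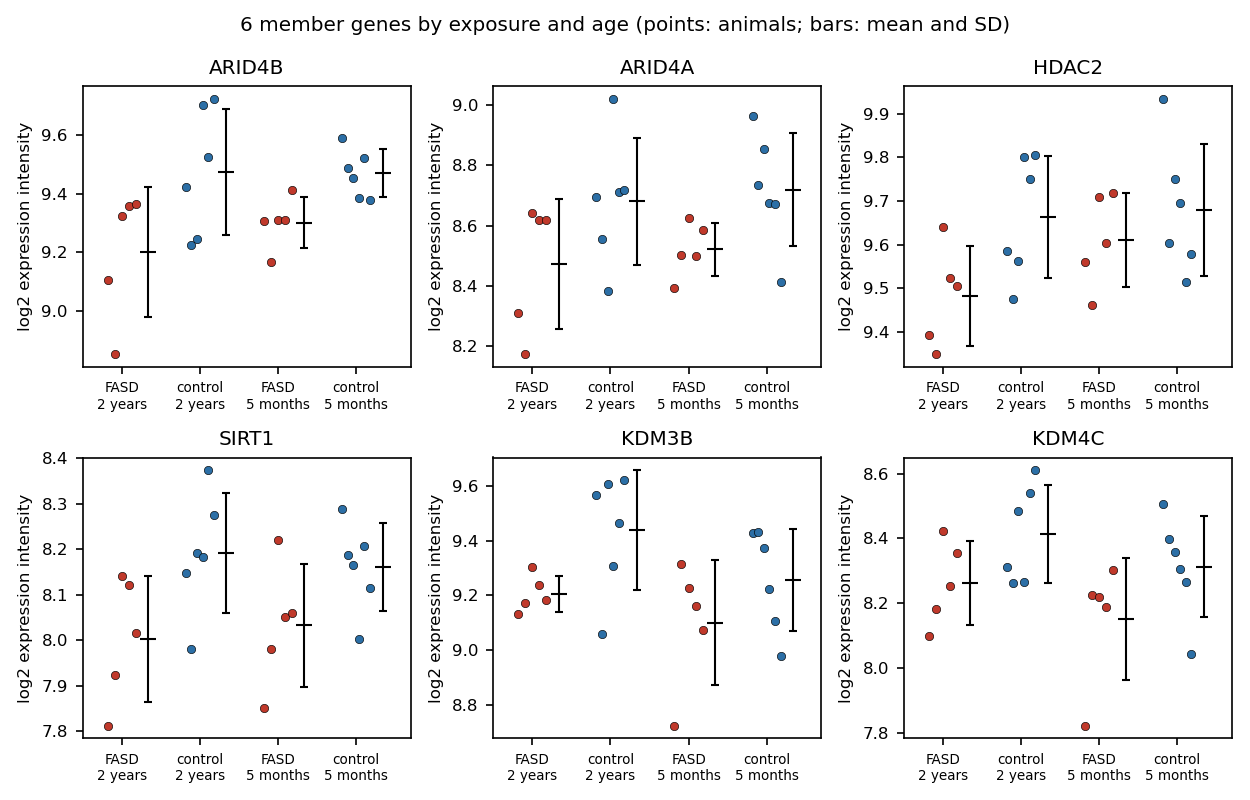
Log2 expression intensity (vertical axes, each panel on its own scale) of 6 of the 9 genes with an unadjusted p under 0.05 for alcohol, in the 4 groups. Each point is an animal and bars give the mean and SD; FASD means lie below control means at both ages in all 6 panels, and the groups overlap at each age.

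Among the demethylases, which take methyl groups off histone lysines, 9 of 15 probe sets were below 0 for alcohol, against 53.2% of all probe sets. An unadjusted p under 0.05 was found for 2, both of them lower, against a background of 6.01%. KDM3B, which acts on H3K9, read 9.13, 9.17, 9.30, 9.24 and 9.18 in FASD animals at 2 years, against 9.06 to 9.62 (median 9.52) in controls. In the younger animals it read 8.72, 9.31, 9.23, 9.16 and 9.07 in FASD animals, against 8.98 to 9.43 (median 9.30) in controls. At 2 years 5 of the 6 controls lay above every FASD animal. The lowest of those controls, at 9.308, all but met the highest FASD animal, at 9.304. The difference was -0.20 (SE 0.08, limma adjusted p = 0.579, exact permutation p = 0.024), and it was -0.15 without FASD animal 2 at 5 months, the animal at 8.72.

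KDM4C, an enzyme for H3K9 and H3K36, differed by -0.16 (SE 0.07, limma adjusted p = 0.580, exact permutation p = 0.0274). FASD animal 2 at 5 months, at 7.82, was far below the other 4 of its group, which read 8.19 to 8.30, and without it the difference was -0.11. Its unadjusted p was 0.05 or more in 4 of the 31 alternatives, that one included. The flavin-dependent KDM1B was measured by a pair of probe sets, which gave -0.15 (SE 0.08) and -0.14 (SE 0.09), the second at a mean level of 3.83, where only 1.42% of all probe sets lie as low. Its relative KDM1A, also called LSD1, differed by -0.05 (SE 0.06). The largest difference above 0 in the class was that of KDM8, at 0.10 (SE 0.09).

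The writers of acetyl marks were represented by 3 enzymes of the MYST family. KAT6A, which acetylates histone H3, read 9.17, 9.55, 9.55, 9.61 and 9.30 in FASD animals at 2 years and 9.57 to 9.72 (median 9.63) in controls. At 5 months it read 9.13, 9.66, 9.67, 9.67 and 9.34 in FASD animals and 9.42 to 9.75 (median 9.61) in controls. At 2 years 4 of the 5 FASD animals lay below every control, those at 9.55 only slightly, and at 5 months 2 did, of which the one at 9.34 was close to the lowest control. The difference was -0.16 (SE 0.07, limma adjusted p = 0.580, exact permutation p = 0.0293), and its p was 0.05 or more without either of the low FASD animals of either age. KAT7 and KAT8, which acetylate histones H3 and H4, differed by 0.02 (SE 0.07) and 0.03 (SE 0.06).

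The methyltransferases were split, with 10 of 17 below 0, against 53.2% of all probe sets. With FASD animal 2 at 5 months left out 5 of 17 were, and the share of all probe sets in that fit is not given here. SETDB2, a relative of the H3K9 methyltransferase SETDB1, differed by -0.17 (SE 0.08, limma adjusted p = 0.581, exact permutation p = 0.04), and its unadjusted p was 0.05 or more in 6 of 30 alternatives. It read 7.11, 6.82, 7.05, 7.18 and 7.15 in FASD animals at 2 years and 7.17 to 7.53 (median 7.23) in controls, and at 5 months 7.13, 7.14, 7.34, 6.91 and 7.25 in FASD animals and 6.95 to 7.59 (median 7.27) in controls. At 2 years 1 FASD animal reached into the control range. KMT5B, which methylates H4K20, differed by -0.12 (SE 0.06, exact permutation p = 0.0548). The G9a and GLP pair of H3K9 enzymes, EHMT2 and EHMT1, differed by 0.07 (SE 0.09) and -0.01 (SE 0.07), and the H3K4 enzyme KMT2A by 0.00 (SE 0.06).

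Among the CHD and SMARC genes, none had an unadjusted p under 0.05 for alcohol. Of the ARID genes only ARID4A and ARID4B did, the SIN3 subunits described above. CHD1, which spaces nucleosomes in transcribed genes, had the largest difference of all 75 probe sets, -0.24, with a wide error (SE 0.12, limma adjusted p = 0.608, exact permutation p = 0.064). It was -0.14 without FASD animal 2 at 2 years. CHD6 differed by -0.18 (SE 0.09, exact permutation p = 0.0485), and by -0.09 without FASD animal 2 at 5 months, which read 6.98 where the next lowest of its group read 7.80. CHD7 and CHD8, both altered in human neurodevelopmental syndromes, were at 0.11 (SE 0.09) for CHD7 and at 0.02 (SE 0.06) and -0.05 (SE 0.06) for the pair of CHD8 probe sets.

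Of the 9 SMARC genes, 0 had an unadjusted p under 0.05 for alcohol. The core BAF subunits SMARCB1, SMARCC1 and SMARCC2 differed by -0.01 (SE 0.04), -0.04 (SE 0.06) and 0.00 (SE 0.06), and the ATPase SMARCA2 by -0.02 (SE 0.04). The accessory subunits SMARCD2 and SMARCD3 were at 0.11 (SE 0.09) and 0.12 (SE 0.08), the second of these being the largest difference above 0 of the 75. ARID1A, the DNA-binding subunit of BAF, differed by 0.08 (SE 0.07) and ARID2, that of PBAF, by -0.02 (SE 0.05). The BRD genes lay between -0.09, for BRD1, a scaffold of MYST acetyltransferases, and 0.07, for BRD3, a BET family reader, and 0 of 6 had an unadjusted p under 0.05.

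The alcohol difference was then taken at each age, with the same estimate of spread. At 2 years, 33 of 75 members were lower in FASD animals (44%, against 46.1% of all probe sets), and at 5 months 58 of 75 were (77.3%, against 61%). The medians were 0.02 at 2 years and -0.06 at 5 months, against 0.01 and -0.03 for all probe sets. With arrays centred, 34 were lower at 2 years and 46 at 5 months, against 49.6% and 46.8% of all probe sets. Without FASD animal 2 at 5 months, 51 were lower at that age, against 56.3%.

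At an unadjusted p under 0.05, 6 members were lower at 2 years (background 3.35%) and 1 was higher (background 2.69%). The lower ones were KDM3B, KAT6A, SETDB2, HDAC2, SIRT1 and ARID4B, and the higher one was KDM4B, a demethylase of H3K9. At 2 years, leaving out FASD animal 2 left 1 lower, FASD animal 1 or control animal 6 left 2, and control animal 1, 4 or 5 left 3. Leaving out control animal 2 at 2 years gave 10 higher, against 7.04% of all probe sets. At 5 months, 2 members were lower (background 3.36%) and 0 were higher (background 1.47%). They were KDM5C, an X-linked demethylase of H3K4, at -0.25 (SE 0.12), and BRD1 at -0.20 (SE 0.09). Without FASD animal 2 or control animal 3, 0 members were lower, against 6 without FASD animal 4. Without FASD animal 4 the median at 5 months was -0.0867 for the members and -0.0345 for all probe sets. All adjusted p values were at least 0.793 at 2 years and 0.932 at 5 months. In no member were the exposures free of overlap at either age, where the background was 0.113% lower and 0.2% higher at 2 years and 0.321% lower and 0.122% higher at 5 months.

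**Figure D4:**
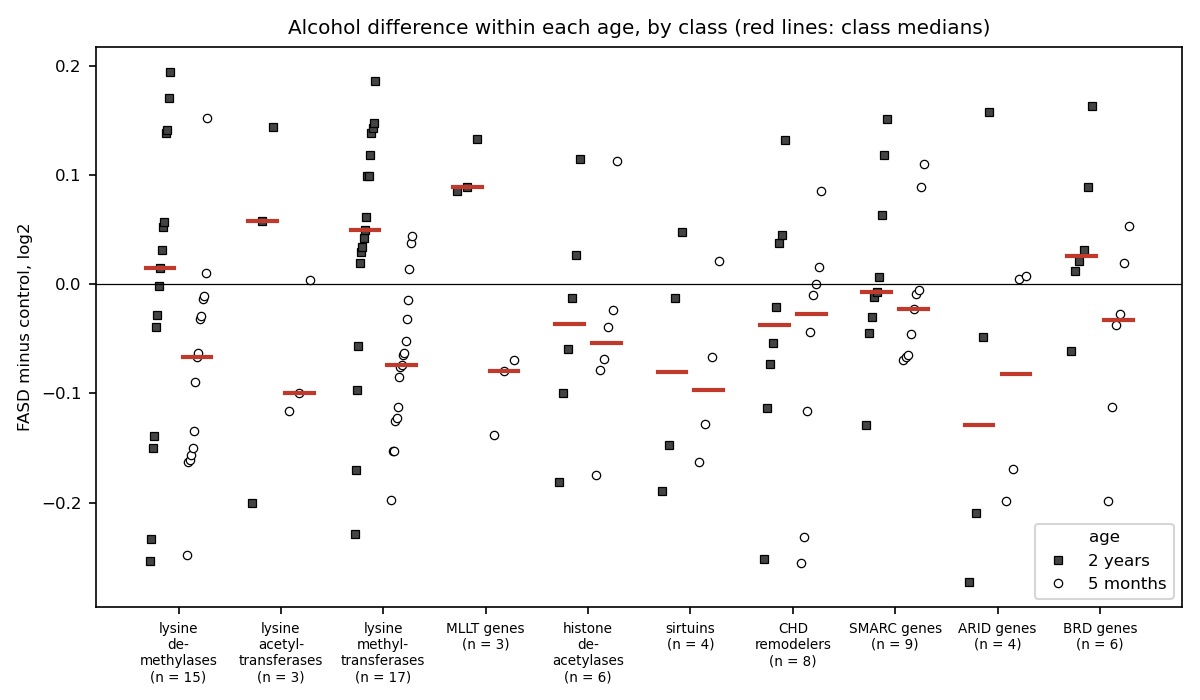
FASD minus control (log2, vertical axis) at 2 years (filled squares) and at 5 months (open circles) for each probe set, by class; red lines are class medians. Methyltransferases and MLLT genes lie mostly above 0 at 2 years and mostly below 0 at 5 months, while the medians of histone deacetylases, sirtuins, CHD remodelers, SMARC genes and ARID genes lie below 0 at both ages.

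The methyltransferases mostly had opposite signs at the 2 ages. At 2 years 13 of 17 were above 0 and at 5 months 14 of 17 were below 0, with medians of 0.05 and -0.07. Without FASD animal 2 at 5 months, 10 of 17 were below 0 at that age. All 3 MLLT genes were above 0 at 2 years and below 0 at 5 months. Of these, 2 were below 0 at 5 months when FASD animal 2 of that age was left out. Of all probe sets, 46.1% were below 0 at 2 years and 61% at 5 months. The medians of demethylases, acetyltransferases and BRD genes were also above 0 at 2 years and below 0 at 5 months. The difference between the ages was tested as the interaction, the alcohol difference at 2 years minus that at 5 months. At an unadjusted p under 0.05, 3 members were higher (4%, against a background of 2.11%) and 0 were lower (background 0.886%), and every adjusted p was at least 0.9997.

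The 3 were KDM4B, at 0.26 (SE 0.11), EZH1, at 0.29 (SE 0.13), and SETDB1, at 0.27 (SE 0.13). KDM4B read 8.40, 8.51, 8.58, 8.40 and 8.36 in FASD animals at 2 years and 8.07 to 8.46 (median 8.26) in controls, and at 5 months 8.24, 8.40, 8.54, 8.53 and 8.34 in FASD animals and 8.30 to 8.65 (median 8.47) in controls. FASD animals spanned much the same values at both ages, and most controls lay lower at 2 years than at 5 months. It had p under 0.05 in all 31 alternatives.

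EZH1, the methyltransferase of H3K27 in Polycomb complexes of non-dividing cells, read 9.0, 9.08, 9.11, 8.93 and 8.89 in FASD animals at 2 years and 8.69 to 9.11 (median 8.82) in controls. The readings at 5 months were 8.40, 8.83, 8.93, 8.81 and 8.75 in FASD animals and 8.74 to 9.07 (median 8.87) in controls. The value of 8.40 was that of FASD animal 2, without which the interaction was 0.20, and its unadjusted p was over 0.05 in 9 of the 31 alternatives. SETDB1, which methylates H3K9 at silenced repeats, had an unadjusted p over 0.05 in 17 of its 30 alternatives, among them both other scalings. Across the 75 members, 53 interactions were above 0 (70.7%, against 60%), and 41 were with arrays centred. The median interaction was 0.054 for the members and 0.0321 for all probe sets. With arrays centred these medians were 0.0097 and -0.0122. The count of 3 became 6 to 8 without FASD animal 4 or control animal 1 at 5 months or control animal 2 at 2 years, and 1 without any one of FASD animal 2 and control animal 4 at 5 months and FASD animals 2 and 3 and control animals 4, 5 and 6 at 2 years.

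Age was examined next, as 2 years minus 5 months averaged over both exposures. No member was among the 16 probe sets with an adjusted p under 0.05 (0.139% of all). At an unadjusted p under 0.05, 3 members were lower at 2 years (4%, against a background of 4.89%) and 2 were higher (2.67%, against 4.68%). Members were divided evenly in sign, with 36 of 75 below 0 (48%, against 48.5%) and a median of 0.00. In both exposures alike, 24 members were lower at 2 years (32%, against 28.2%) and 17 were higher (22.7%, against 28.9%).

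ARID2, the DNA-binding subunit that sets PBAF apart from BAF, read 8.17, 8.18, 8.10, 8.14 and 8.21 at 2 years and 8.22, 8.38, 8.55, 8.31 and 8.31 at 5 months in FASD animals. Controls read 8.08 to 8.40 (median 8.21) at 2 years and 8.18 to 8.56 (median 8.33) at 5 months. In FASD animals the ages all but met, with 8.210 as the highest value at 2 years and 8.215 as the lowest at 5 months. The age difference was -0.17 (SE 0.05, limma adjusted p = 0.251), and an exact two-sided permutation of the ages within each exposure gave p = 0.00198 over 232848 arrangements.

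BRD3 read 9.25, 9.62, 9.58, 9.29 and 9.30 at 2 years and 9.44, 9.61, 9.93, 9.61 and 9.51 at 5 months in FASD animals. Controls read 9.02 to 9.62 (median 9.30) at 2 years and 9.44 to 9.72 (median 9.53) at 5 months. Most animals of 2 years lay below those of 5 months, with overlap in both exposures. The difference was -0.23 (SE 0.07, limma adjusted p = 0.266, exact permutation p = 0.0067). Both ARID2 and BRD3 had an unadjusted p under 0.05 in all 31 alternatives.

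CHD9, a remodeler of the CHD6 to CHD9 subfamily, differed by -0.17 with age (SE 0.07, limma adjusted p = 0.409, exact permutation p = 0.0213). HDAC8 was higher at 2 years by 0.14 (SE 0.06, limma adjusted p = 0.470, exact permutation p = 0.0456). The first KDM1B probe set was higher by 0.19 (SE 0.08, limma adjusted p = 0.456, exact permutation p = 0.0343), and the second, the one near the bottom of the range of levels, gave 0.05 (SE 0.09). Without FASD animal 2 at 5 months neither HDAC8 nor KDM1B had p under 0.05, and the counts for age were 6 lower and 0 higher. The count of 2 higher became 0 without FASD animal 3 at 2 years and 5 without FASD animal 4 at 5 months or control animal 4 at 2 years, and it was 1 in 7 of the other fits that left out 1 animal.

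**Figure D5:**
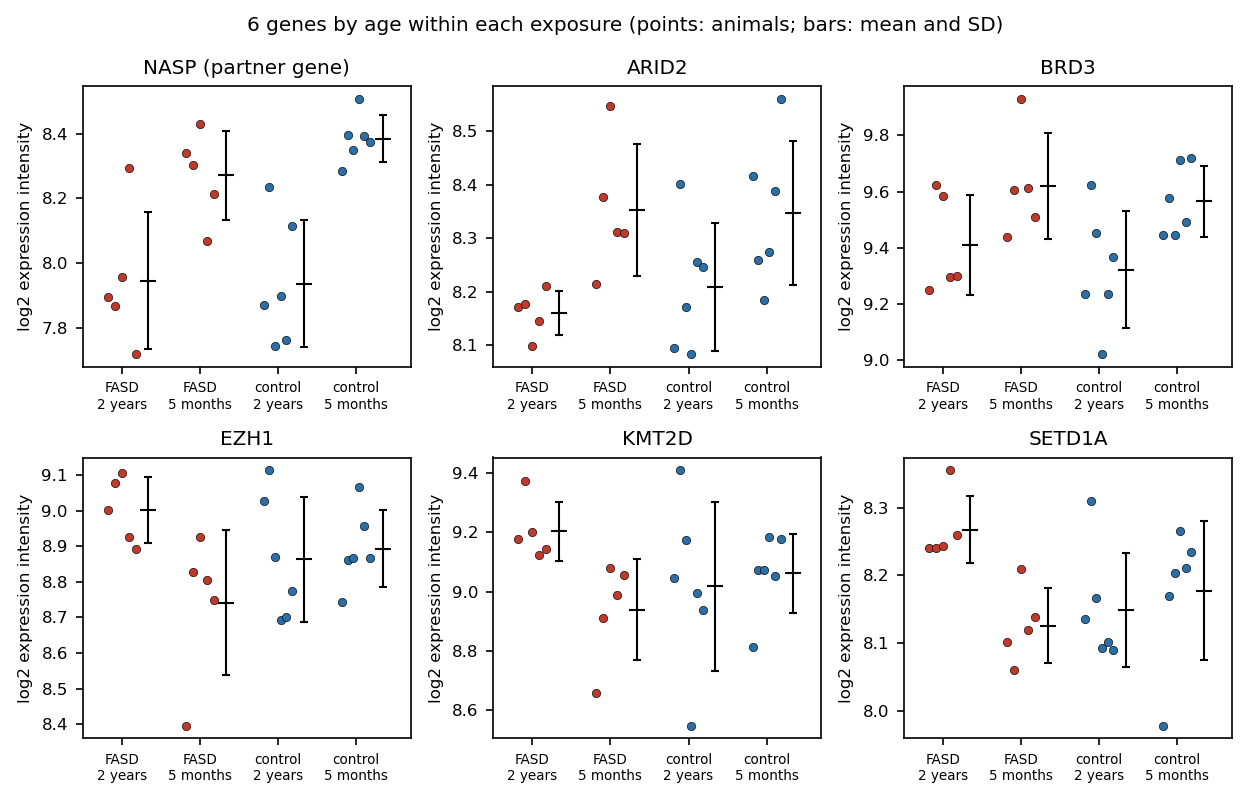
Log2 expression intensity (vertical axes, each panel on its own scale) by age within each exposure for NASP, a histone chaperone outside the 75, and for ARID2, BRD3, EZH1, KMT2D and SETD1A. Points are animals and bars give the mean and SD; in FASD animals the ages do not overlap for KMT2D and SETD1A and all but meet for ARID2, and in controls they do not overlap for NASP.

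Within the exposures, 5 members were higher at 2 years in FASD animals at an unadjusted p under 0.05 (background 4.71%) and 1 was lower (background 2.28%), while in controls 0 were higher (background 1.78%) and 2 were lower (background 3.77%). In FASD animals the higher ones were EZH1, KMT2D, SETD1A, SUV39H2 and BRD1, of which the first 4 are methyltransferases, and the lower one was ARID2. Without FASD animal 2 at 5 months, 1 was higher and 3 were lower, and without FASD animal 4 at 5 months 8 were higher and 0 lower. The median age difference in FASD animals was then 0.0078 and 0.0603 for the members, against 0.0058 and 0.0215 for all probe sets. In controls the lower ones were KDM4B and BRD3. Without control animal 2 at 2 years, 11 were lower. That animal had the highest mean of the 75 probe sets among all animals, at 0.091. Without it the median age difference in controls was -0.0604 for the members and -0.0183 for all probe sets. Adjusted p values were at least 0.623 in FASD animals and 0.510 in controls. In controls 5 were lower without control animal 2 at 5 months. The counts here for fits that left out 1 animal stand without the share of all probe sets. They cannot be told apart from a shift of all probe sets.

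KMT2D and SETD1A, which methylate H3K4 at enhancers and promoters, were higher at 2 years without overlap in FASD animals, against 0.921% of all probe sets higher in this way. KMT2D read 9.18, 9.37, 9.20, 9.12 and 9.14 at 2 years and 8.66, 8.91, 9.08, 8.99 and 9.06 at 5 months in FASD animals. SETD1A read 8.24, 8.24, 8.24, 8.36 and 8.26 at 2 years and 8.10, 8.06, 8.21, 8.12 and 8.14 at 5 months in FASD animals. In controls both genes overlapped between the ages, with age differences of -0.04 (SE 0.11) for KMT2D and -0.03 (SE 0.06) for SETD1A. The interaction was 0.31 (SE 0.16) for KMT2D and 0.17 (SE 0.08) for SETD1A, each with an unadjusted p over 0.05. ARID2, by the narrow gap given above, was the 1 member lower without overlap in FASD animals, against 0.391% of all probe sets.

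The members work in complexes, and 10 lists of their partners were followed in the same fit, with 238 genes in all. Of these, 144 were measured, by 155 probe sets. For alcohol, 10 of the 155 were lower at an unadjusted p under 0.05 (6.45%, against 6.01%) and 2 were higher (1.29%, against 2.43%), and none passed after adjustment. For age, 6 were lower (3.87%, against 4.89%) and 8 higher (5.16%, against 4.68%).

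The only call after adjustment was NASP, a chaperone of histone H3 and H4 and of linker histone H1 that is abundant in dividing cells. NASP read 7.90, 7.87, 7.96, 8.29 and 7.72 at 2 years and 8.34, 8.30, 8.43, 8.07 and 8.21 at 5 months in FASD animals. Controls read 7.75 to 8.23 (median 7.89) at 2 years and 8.29 to 8.51 (median 8.38) at 5 months. It fell by 0.38 on the log2 scale (SE 0.07, limma adjusted p = 0.0155), which is 23.4% on the linear scale, and controls did not overlap between the ages. Markers of immature neurons and progenitors (4 probe sets for 6 genes) moved with it, at -0.46 to 0.40 (median -0.12) at 2 years and 0.16 to 0.29 (median 0.26) at 5 months in FASD animals, and at -0.44 to -0.16 (median -0.27) at 2 years and 0.00 to 0.30 (median 0.18) at 5 months in controls. Their part in the age difference of NASP was not tested. Its alcohol difference was 0.01 at 2 years and -0.11 at 5 months.

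Other partners with an unadjusted p under 0.05 were spread over the lists. For alcohol, SUZ12, a core Polycomb subunit and partner of EZH1, differed by -0.15 (SE 0.07), with an unadjusted p of 0.05 or more in 12 of 31 alternatives. SS18, a BAF subunit, gave -0.29 (SE 0.12) by 1 probe set and 0.10 (SE 0.05) by the other, so its probe sets disagreed in sign. PRMT9, an arginine methyltransferase, differed by -0.16 (SE 0.06) and the methylarginine reader TDRD3 by -0.15 (SE 0.06). ASF1A, a histone chaperone, gave -0.25 (SE 0.09) by 1 probe set and -0.01 (SE 0.06) by the other. For age, RBBP7, a histone-binding subunit shared by several deacetylase and Polycomb complexes, was higher by 0.12 (SE 0.04, limma adjusted p = 0.263) by 1 of its pair of probe sets, and the bromodomain gene BRWD3 was lower by 0.22 (SE 0.08, limma adjusted p = 0.296).

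The other subunits of the SIN3 complex were looked up after the values of ARID4A, ARID4B and HDAC2 had been seen. The scaffolds SIN3A and SIN3B differed by -0.05 (SE 0.10) and 0.03 (SE 0.10) for alcohol. SUDS3, which stimulates the deacetylase, was at -0.15 (SE 0.08), SAP30 at -0.13 (SE 0.08) and the H3K4 methyl reader ING2 at -0.19 (SE 0.07, limma adjusted p = 0.579). SAP18, SAP130, SAP30L and BRMS1L lay between -0.03 and 0.04. Of the subunits looked up, ING2 alone had an unadjusted p under 0.05.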

How the data were processed

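Hippocampal RNA of 22 vervets was measured on 1 array each. The authors deposited log2 intensities from RMA, a method that subtracts background, gives every array the same distribution and combines the probes of each set. The sources used here give no version of it. The authors then kept annotated, detected probe sets and, of several for a gene, the one of highest mean, and 11512 were deposited. Genes with a pair of probe sets here have it by the platform annotation, which differs from the annotation behind that step. The platform annotation gives 8730 of them 1 symbol, 88 several and 2694 none. RMA keeps no background estimate, so a low value can be noise, and the number of arrays limits the precision.

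The 4 group means were fitted to all 11512 probe sets with limma 3.58.1 in R 4.3.3, with Benjamini-Hochberg adjustment over all of them, in place of the two-way analysis of variance that the methods name. The limma step was tested on simulated data. No further scaling or filter was applied. Exact two-sided permutation tests were run for 24 gene and comparison pairs picked for low p, so no adjustment was made over them. Plots were made in Python 3.11.15 (matplotlib 3.10.9).

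The members and the partner and marker lists were chosen with earlier results of these data known. Genes were named by rule: the 12 members of lowest p for alcohol and for age, the 5 for the interaction, the lowest of each class, every other probe set of a named gene, and the lowest of each partner list where its p was under 0.05. Other genes are given as neighbours in a class, or are named as counted, and were chosen after their values were seen.

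The source name of control animal 6 at 5 months gives 2 years. Its other labels give 5 months, and it was kept there. The title of the discarded FASD array at 5 months gives replicate 2, the number that FASD animal 2 of that age also carries. The study's supplement gives the discarded array a different number. The discarded array has no values here, so whether these labels were exchanged could not be tested. FASD animal 2 was kept as labelled. Replicate numbers were not taken to pair the samples. Alternatives were the analysis of variance, a trended and robust fit, centring, quantile normalization, array weights, 1 probe set per gene or their mean, the upper range of levels, the replicate block and leaving out each animal. Sequences were not used here.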

Additional observations from a re-analysis of the deposited data

Results flagged for a closer look

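Single animals stood apart within their group for several of the named genes. Of 124 sets of values checked, those of 30 probe sets and of the mean over the members in each of the 4 groups, 15 had a highest or lowest animal whose gap to its neighbour passed the critical value of Dixon's test, where chance gives about 1 in 20. FASD animal 2 at 5 months read low for KDM4C (7.82, next 8.19), CHD6 (6.98, next 7.80) and MLLT1 (9.08, next 9.32). The other FASD animals singled out at 5 months were animal 4 for CHD9 (9.97, next 9.68) and animal 6 for SMARCAD1 (8.26, next 8.06). At 2 years they were FASD animal 4 for KDM1B (7.94, next 8.18) and SETD1A (8.36, next 8.26), and FASD animal 2 for SMARCAD1 (7.35, next 7.99). Among the controls at 2 years, animal 1 read 5.97 for SUV39H2 (next 5.68), animal 4 read 7.96 for BRD1 (next 8.20), and animal 2 read 8.31 for SETD1A (next 8.17) and 3.55 for the second KDM1B probe set (next 3.93). Among the controls at 5 months, animal 1 read 7.98 for SETD1A (next 8.17) and 8.81 for KMT2D (next 9.05), and animal 4 read 3.41 for the second KDM1B probe set (next 3.81).

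For KDM4B, EZH1 and SETDB1 the alcohol difference at 2 years exceeded that at 5 months by 0.26, 0.29 and 0.27 on the log2 scale, with an unadjusted interaction p under 0.05 by limma and an adjusted p of 0.9997 for each. The alcohol difference was 0.19 at 2 years and -0.07 at 5 months for KDM4B, 0.14 and -0.15 for EZH1, and 0.14 and -0.13 for SETDB1.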

How the results depend on the processing

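No member had an adjusted p under 0.05 for alcohol, age or the interaction in any of the 31 alternatives, and NASP kept an adjusted p between 0.00141 and 0.0459 for age. With arrays centred, 5 members were higher with age at an unadjusted p under 0.05. With array weights, 2 were higher for alcohol, 5 lower and 1 higher for age, and 5 higher for the interaction. With probe sets averaged by gene, and with probe sets above the median level only, 1 was higher for age. Above that level 55 of the 75 members remained. With the replicate number as a block, 12 members were lower for alcohol, 3 lower and 2 higher for age and 2 higher for the interaction. Deviations of animals with the same number correlated at r between -0.33 and 0.389 (median 0.094, 13 of 30 pairs over 0.1), against a median of -0.021 and 38 of 151 pairs over 0.1 for different numbers. Animals with the same number were thus somewhat more alike. By the study's methods, cases and controls of matched age were sacrificed in turn. These correlations cannot decide whether the numbers pair animals. The main fit left the numbers out, and pairing was not excluded. MLLT6, at 0.0081 for alcohol, turned to -0.0012 under the block and ranged from -0.0179 to 0.0346 when 1 animal was left out. Leaving out 1 animal at a time gave 5 to 12 members lower and 0 to 2 higher for alcohol, 2 to 6 lower and 0 to 5 higher for age, and 1 to 8 higher for the interaction. The median difference then ranged from -0.0307 to -0.0045 for alcohol, from -0.0147 to 0.0109 for age and from 0.022 to 0.0934 for the interaction. The cause of these shifts was not tested. Where a count stands without the share of all probe sets, it cannot be told apart from a shift of all probe sets.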
